A study of Rattus norvegicus with 6 samples.

Results

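The genes examined here encode the subunits of AMPA and kainate receptors, and they were the rows of the deposited gene table named Gria1 to Gria4 and Grik1 to Grik5. These were 9 of 30957 genes, 4 of them encoding AMPA and 5 encoding kainate receptor subunits. RNA was sequenced from the ipsilateral lumbar enlargement of the spinal cord of Wistar rats on day 14 after surgery, in 3 libraries of a bone cancer pain (BCP) group and 3 of a sham group. Living Walker 256 breast cancer cells were placed in the medullary cavity of the left tibia in the BCP group, heat-killed cells of that line in the sham group, and the meninges were removed from the cord in both groups. The paper's methods give female rats. As a model of the disease, the BCP group rests on 1 cell line placed in 1 bone, and the labels do not say whether each library came from a separate animal, so the p-values measure the spread between these libraries.

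AMPA and kainate receptors are ligand-gated cation channels that open on binding glutamate, and each is an assembly of 4 subunits. AMPA receptors, built from GluA1 to GluA4 (Gria1 to Gria4), carry most of the fast excitatory current at synapses of the spinal cord, and GluA2, whose transcript is edited at a pore codon, makes the channel nearly impermeable to calcium. Kainate receptors combine the subunits GluK1 to GluK3 (Grik1 to Grik3), which can form channels on their own, with the high-affinity subunits GluK4 and GluK5 (Grik4 and Grik5), which need a partner among the former. In the dorsal horn both kinds of receptor lie on neurons that receive input from primary afferents, and kainate receptors also lie on terminals.

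Of the 9 subunit genes 6 fell in the BCP libraries and none rose, with an adjusted p-value under 0.05 in edgeR's quasi-likelihood test as the threshold. Gria1, Gria3, Gria4, Grik2, Grik4 and Grik5 fell, by between 9.16% and 26.2%, whereas Gria2, Grik1 and Grik3 did not pass. All the decreases were small, and no subunit gene came near the 2-fold threshold of the paper. Over all 14908 genes tested, 27.9% passed the same test, 12.1% in the lower and 15.8% in the higher direction. Beyond 2-fold, 0.107% of all genes were lower and 6.35% higher. For exactly these 6 subunit genes no BCP library reached the lowest sham library, a pattern shown by 19.8% of all genes tested, while 21.7% of all genes and none of the 9 had every BCP library above every sham library. By family these were 3 of the 4 AMPA and 3 of the 5 kainate subunit genes. The median log2FC of the 9 genes was -0.16, beside -0.01 over all genes tested, and it turned to 0.03, beside 0.17 over all genes, when libraries were scaled to neuron markers. The 8 of 12 neuron marker genes that also fell, and what scaling to them does to these decreases, are given below.

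The counts on all genes ranged from 11779485 to 15004290 per library, and the subunit genes together took up 0.0949% to 0.110% of them. The lowest count of any subunit gene in a library was 242, for Grik1, and counting error is part of the spread between libraries given for each gene. Normalized values are given as CPM after TMM normalization and are compared within a gene. Each count was divided by the library total over the genes tested times the library's TMM factor, which ran from 0.982 to 1.02. Levels are compared between genes as the authors' FPKM, which divides by transcript length and by the library total, without the TMM factor. Marker lists placed the libraries in spinal cord, with all 12 neuron, all 7 oligodendrocyte and all 7 astrocyte markers above the filter on low counts. The summed level of 8 microglia markers was 204 to 268 CPM in the sham and 669 to 802 CPM in the BCP libraries, and that of 5 T cell markers was 4.42 to 5.80 and 37.1 to 39.1 CPM. Nearly all of the T cell sum in the sham libraries was Cd4, at a mean of 5.09 of 5.21 CPM, and Cd4 had 21.9 of 37.9 CPM in the BCP libraries. Cd3d had 0 counts in each sham library, and Cd3e, Cd3g and Cd8a had at most 2. Of 7 dorsal root ganglion markers 4 were tested and 1 fell, Mrgprd had no count in any library, and their summed level was 10.8 to 14.5 CPM in the sham and 7.80 to 9.47 CPM in the BCP libraries.

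Grik4, which encodes the high-affinity kainate subunit GluK4 (chr8:46806147-47094352, Rnor_6.0), decreased most. It stood at 81.5, 82.4 and 79.7 CPM in the sham libraries and at 62.8, 60.3 and 56.8 CPM in the BCP libraries. Every BCP library thus lay well below every sham library, and the gap between the groups exceeded the range within either group. The level fell from 81.2 ± 1.40 to 60.0 ± 3.03 CPM (SD, n = 3), or by -0.44 ± 0.06 as log2FC with its standard error, and the quasi-likelihood test gave an adjusted p of 1.36e-05. The 95% interval of the change ran from -32.4% to -19.4%. Among the 1805 genes that fell, 74 had a smaller p-value and 210 a more negative log2FC than Grik4.

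Grik5 (chr1:81885521-81946714) encodes GluK5, the other high-affinity subunit, which in the brain is the more widely expressed of the pair. Its level was 69.9, 77.4 and 76.1 CPM in the sham libraries and 67.9, 57.1 and 63.2 CPM in the BCP libraries, so that BCP library 1 came close to sham library 1. It fell by 15.9%, a log2FC of -0.25 ± 0.07 (standard error; adjusted p = 0.00995 in edgeR's quasi-likelihood test). Without BCP library 2 the adjusted p was 0.0789 and without sham library 2 it was 0.0529, so both of these libraries bore on the call.

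The promoter sequences of the changed Grik4 and Grik5 are shown beside that of Grik3, the kainate subunit gene whose change was nearest to 0, as the 250 bases before the RefSeq start of each gene in GRCr8, on the minus strand for Grik4 (chr8:52102064-52102313) and Grik5 (chr1:89794910-89795159) and on the plus strand for Grik3 (chr5:143052192-143052441), 5′ to 3′, with each CG dinucleotide in capitals.
Grik4: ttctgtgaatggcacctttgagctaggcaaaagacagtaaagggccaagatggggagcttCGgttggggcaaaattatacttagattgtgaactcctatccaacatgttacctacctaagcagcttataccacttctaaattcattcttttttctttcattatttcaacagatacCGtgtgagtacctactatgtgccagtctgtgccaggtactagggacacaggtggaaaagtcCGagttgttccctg
Grik5: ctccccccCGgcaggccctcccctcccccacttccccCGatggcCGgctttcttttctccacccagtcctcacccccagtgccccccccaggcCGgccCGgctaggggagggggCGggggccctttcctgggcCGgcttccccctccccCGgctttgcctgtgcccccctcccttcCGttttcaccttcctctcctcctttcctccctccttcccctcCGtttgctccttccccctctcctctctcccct
Grik3: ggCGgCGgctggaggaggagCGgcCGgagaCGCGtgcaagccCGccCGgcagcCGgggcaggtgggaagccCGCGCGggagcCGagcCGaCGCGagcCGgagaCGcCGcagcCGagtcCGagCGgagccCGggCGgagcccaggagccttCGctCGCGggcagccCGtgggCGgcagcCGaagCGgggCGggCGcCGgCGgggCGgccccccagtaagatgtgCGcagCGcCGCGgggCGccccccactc
The Grik4 window held 3 CG dinucleotides, the Grik5 window 10 and the Grik3 window 41, against a median of 5 over 33469 windows of the same length. The start used for Grik4 lies 127 kb inside the gene's RefSeq span, so it is 1 of several possible starts, whereas that of Grik3 is at the edge of the gene. A promoter window was found for 6 of the 9 genes (Gria4 and the 5 Grik genes). GGGCGG, searched on both strands, occurred in the Grik5 and Grik3 windows and in 30.5% of all windows. TATAAA, found in 12.9% of all windows, occurred in none of the 6. CCAAT, in 34.0% of all windows, occurred in those of Gria4 and Grik2, and TGACG, in 18.2%, in that of Grik2. No measurement made here bears on the use of these promoters.

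Among the kainate subunits that can form channels on their own, Grik2, which encodes GluK2 (chr20:53789760-54517709), fell. Its level was 110, 104 and 116 CPM in the sham libraries and 95.4, 95.5 and 99.1 CPM in the BCP libraries. The groups did not overlap, although the range of the sham libraries was wider than the gap. The log2FC was -0.19 ± 0.05 (standard error), with an adjusted p of 0.0144 in the quasi-likelihood test. The call was lost without sham library 3 (adjusted p = 0.0948) and without BCP library 2 (adjusted p = 0.0622).

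Grik1 (chr11:27811957-27971359), which encodes GluK1, a subunit also known from primary afferent neurons, had 20.1, 22.2 and 21.5 CPM in the sham libraries and 22.5, 17.9 and 18.3 CPM in the BCP libraries. BCP library 1 was the highest of the 6 and the other two BCP libraries were the lowest, so the groups overlapped. Its log2FC, -0.13 ± 0.11 (standard error), did not pass the same test (adjusted p = 0.422), and the 95% interval of the change reached from -21.3% to 6.74%.

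Grik3 (chr5:143500441-143715546), which encodes GluK3, had 26.2, 34.4 and 34.2 CPM in the sham libraries and 30.9, 29.3 and 33.2 CPM in the BCP libraries. Sham library 1 was the lowest of all 6 libraries, and the BCP libraries lay inside the range of the sham libraries. The log2FC was -0.02 ± 0.10 (standard error), with an adjusted p of 0.899 in the quasi-likelihood test and an interval of the change from -15.0% to 14.1%. The mean decrease of Grik4 lay outside that interval.

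**Figure D1:**
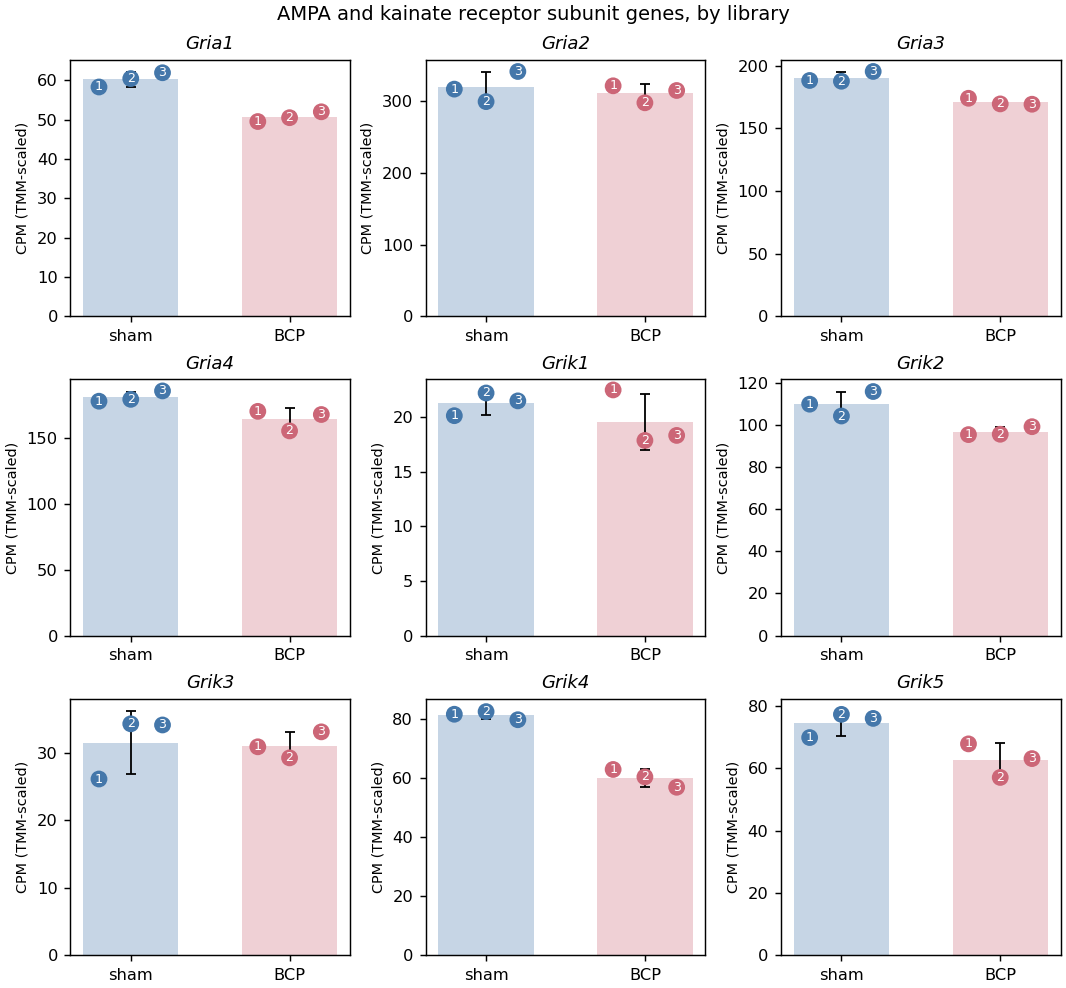
Level of each AMPA and kainate receptor subunit gene in CPM (vertical axis, from 0) in the sham and BCP libraries; numbered points are the libraries, bars the means and error bars the SD of 3 libraries. Grik4 stood at 79.7 to 82.4 CPM in the sham and 56.8 to 62.8 CPM in the BCP libraries, whereas the groups overlapped for Gria2, Grik1 and Grik3.

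Of the AMPA receptor subunits, Gria1 (chr10:42614713-42760200) showed the largest decrease. It encodes GluA1, whose phosphorylation and insertion into synapses are central to synaptic strengthening. Its level was 58.3, 60.5 and 62.0 CPM in the sham libraries and 49.5, 50.5 and 52.0 CPM in the BCP libraries. The groups were well apart, with no BCP library above 52.0 CPM. The log2FC was -0.25 ± 0.07 (standard error), with an adjusted p of 0.00653 in edgeR's quasi-likelihood test, and Gria1 stayed past the threshold whichever library was left out, with adjusted p-values up to 0.0340.

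Gria3 (chrX:127562660-127829753), which encodes GluA3, a partner of GluA2, had 188, 188 and 195 CPM in the sham libraries and 174, 170 and 169 CPM in the BCP libraries. The groups did not overlap, and the decrease of 10.2% (log2FC -0.16 ± 0.05, standard error) passed the quasi-likelihood test at an adjusted p of 0.0135. It lost the call without sham library 3 (adjusted p = 0.0651), without BCP library 2 (0.0580) and without BCP library 3 (0.0509).

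Gria4 (chr8:1548146-2045817), which encodes GluA4, a subunit with fast kinetics, had 178, 179 and 186 CPM in the sham libraries and 170, 156 and 168 CPM in the BCP libraries. The groups did not overlap, but BCP library 1 came close to the lowest sham library. With a log2FC of -0.14 ± 0.05 (standard error) Gria4 passed narrowly, at an adjusted p of 0.0400 in the quasi-likelihood test, and it did so in only 1 of the 6 fits that each left out a library. Without BCP library 2 the adjusted p was 0.237, without sham library 3 it was 0.139, and without sham library 1, sham library 2 or BCP library 3 it was 0.0540, 0.0656 and 0.0585. DESeq2 gave an adjusted p of 0.0770.

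Gria2 (chr2:179584308-179704629), which encodes GluA2, was the most abundant of the subunit genes and did not pass the test. It had 317, 300 and 342 CPM in the sham libraries and 322, 298 and 315 CPM in the BCP libraries, and the groups overlapped over most of their range. The quasi-likelihood test gave it an adjusted p of 0.654, at a log2FC of -0.04 ± 0.05 (standard error). The 95% interval of the change ran from -9.36% to 4.94%. The mean decrease of Gria1, 15.9%, lay outside it, but the interval of Gria1, from -23.5% to -7.54%, overlapped it. The changes of the 2 genes were not tested against each other.

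**Figure D2:**
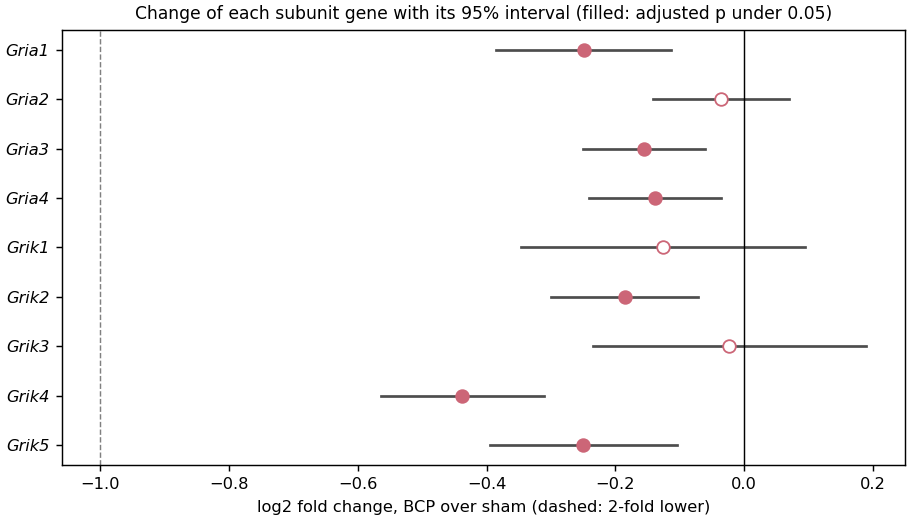
Log2 fold change of each subunit gene, BCP over sham (horizontal axis), with its 95% interval as a line; filled points passed an adjusted p-value under 0.05 and the dashed line marks 2-fold lower. On this TMM scaling all 9 points lie below 0, from -0.44 for Grik4 to -0.02 for Grik3, but with library size only Gria2 and Grik3 turn above 0, and with scaling to neuron markers all but Gria1, Grik4 and Grik5 do.

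Per transcript length, the order of the subunit genes was Gria2, Gria3, Gria4, Grik4, Grik5, Gria1, Grik2, Grik3 and Grik1, and each was higher than the next in all 6 libraries. The mean FPKM over the 6 libraries was 46.0 for Gria2, 35.1 for Gria3, 31.6 for Gria4 and 21.3 for Grik4. It was 18.2 for Grik5, 15.9 for Gria1, 14.8 for Grik2, 8.62 for Grik3 and 6.01 for Grik1. Although the order held within each library, the ranges over libraries overlapped between Gria3 and Gria4, between Grik4 and Grik5, between Grik5 and Gria1 and between Gria1 and Grik2. Thus GluA1 had the least abundant transcript of the AMPA subunits in this tissue, at 17.0 ± 0.566 FPKM in the sham libraries against 45.9 ± 3.02 FPKM for Gria2 (SD, n = 3), and GluK4 the most abundant of the kainate subunits, at 24.3 ± 0.433 FPKM.

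The estimated decreases differed in size, so the makeup of each family at the transcript level was also compared. The measure was the share of each gene in the summed FPKM of its family, which does not depend on the scaling between libraries. The share of Gria2 among the AMPA subunits ran from 33.5% to 35.7% over the sham libraries and, at 37.2%, 36.4% and 36.9%, was higher in every BCP library, with means of 34.7% ± 1.11 and 36.9% ± 0.399 (SD, n = 3). Gria1 moved the other way, from 12.9% ± 0.355 to 11.8% ± 0.466, and again the groups did not overlap. The shares of Gria3 and Gria4 overlapped between groups.

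Within the kainate family the share of Grik4 was 34.2%, 32.7% and 31.5% in sham libraries 1 to 3 but 28.9%, 30.2% and 27.4% in BCP libraries 1 to 3, a mean difference of -3.94 percentage points. Grik3 had a larger share in every BCP library (12.9% to 14.5%) than in any sham library (9.97% to 12.4%), and Grik1 likewise (8.62% to 10.1% against 8.23% to 8.57%). Single libraries bore on both, since the mean difference was 2.07 percentage points for Grik3 but 1.29 without sham library 1, and 0.780 points for Grik1 but 0.313 without BCP library 1. The shares of Grik2 and Grik5 overlapped. Since shares add to a fixed total, a higher share of Grik3 or Grik1 does not mean a higher level. An exact two-sided permutation test gave p = 0.1 for Gria1, Gria2, Grik1, Grik3 and Grik4, the smallest value that 3 against 3 libraries allow (0.18 after Benjamini-Hochberg adjustment over the 9 shares), so this test could not bring a difference in makeup under the 0.05 threshold. The summed FPKM of the kainate subunits was 74.0 ± 2.79 in the sham and 63.9 ± 2.35 in the BCP libraries, and that of the AMPA subunits 132 ± 4.91 and 125 ± 3.13 (SD, n = 3, exact permutation p = 0.1 for both). Unlike the shares, these sums depend on the scaling between libraries, which for FPKM is by library total without the TMM factor.

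**Figure D3:**
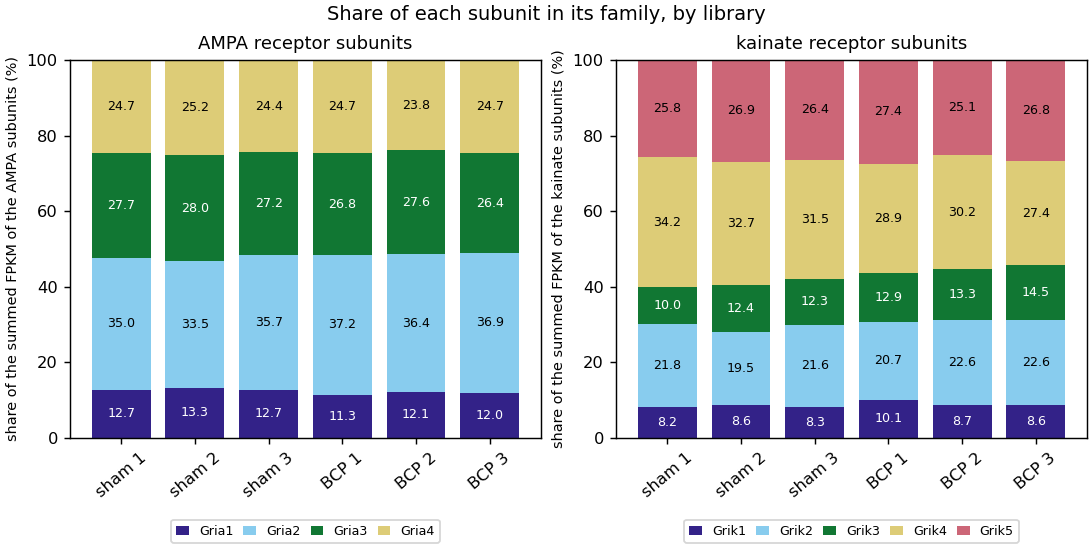
Share of each subunit gene in the summed FPKM of the AMPA subunits (left) and of the kainate subunits (right), in percent, with 1 stacked bar for each library. Gria2 holds 36.4% to 37.2% of the AMPA total in the BCP and 33.5% to 35.7% in the sham libraries, and Grik4 holds 27.4% to 30.2% and 31.5% to 34.2% of the kainate total.

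The receptors need partner proteins, and lists of these were examined in the same fit. Of 69 partner genes in 8 lists 63 were tested, of which 21 fell (33.3%, beside 12.1% of all genes tested) and 1 rose (1.59%, beside 15.8%). Their median log2FC was -0.15, beside -0.01 over all genes, and the same shares over all genes apply to each list below. When libraries were scaled to neuron markers, 2 fell and 7 rose, beside 215 and 4665 of all 14908 genes. Of the auxiliary subunits of AMPA receptors, which set gating and anchor the receptor, 2 of the 9 tested fell and none rose. These were Cacng2, which encodes stargazin, from 82.3 ± 2.80 to 70.2 ± 0.600 CPM, and Cacng7, from 196 ± 7.02 to 166 ± 7.06 CPM (SD, n = 3, adjusted p = 0.00425 and 0.000902 by edgeR's quasi-likelihood test). None of the 4 tested auxiliary subunits and ligands of kainate receptors passed, and Neto1 and Neto2, the auxiliary subunits, had a log2FC of -0.12 and -0.08.

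Among factors of AMPA receptor assembly and surface organization 4 of 9 fell, led by Olfm2, which encodes an olfactomedin-domain protein and stood at a log2FC of -0.41 ± 0.07 (standard error), with an adjusted p of 0.000238 in the quasi-likelihood test. The others were Prrt1, at -0.34, Syndig1, at -0.26, and Olfm1, at -0.16. Of 13 tested scaffold and trafficking proteins 5 fell. Dlg4, which encodes PSD-95, the main scaffold of excitatory synapses, fell from 380.5 ± 8.58 to 308 ± 12.9 CPM (SD, n = 3, adjusted p = 2.88e-05). Grip2, which binds the tail of GluA2 and GluA3, Nptxr and Nptx1, pentraxins that cluster AMPA receptors, and Nsf, an ATPase that acts in membrane fusion, fell by less, with a log2FC between -0.28 and -0.12.

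Adarb1, which encodes ADAR2, the enzyme that edits the GluA2 transcript, fell from 383 ± 11.9 to 319 ± 7.16 CPM (SD, n = 3, log2FC -0.26, adjusted p = 9.76e-05 by the quasi-likelihood test), while Adar and Adarb2 did not pass. Editing itself cannot be read from counts. Of 15 kinases and phosphatases that act on AMPA receptors 6 fell, among them Camk2a, Camk2b, Prkca, Prkaca and Ptpn5, with a log2FC between -0.25 for Prkca and -0.17 for Prkaca. The 1 partner gene that rose was Ppp1ca, a catalytic subunit of protein phosphatase 1, at a log2FC of 0.23 (adjusted p = 0.00980). This call was lost without sham library 3, without BCP library 2 and without BCP library 3, fits in which no partner gene rose. Of the delta receptor genes, relatives of the AMPA and kainate subunits, Grid1 fell (log2FC -0.30, adjusted p = 0.00991). In glutamate handling 2 of 7 tested genes fell. Slc1a2, the main glutamate transporter of astrocytes, fell from 649 ± 6.60 to 503 ± 22.5 CPM (adjusted p = 1.65e-06). Slc17a6, the vesicular glutamate transporter of most excitatory spinal neurons, stood at 220 ± 6.28 and 224 ± 14.5 CPM (adjusted p = 0.775).

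**Figure D4:**
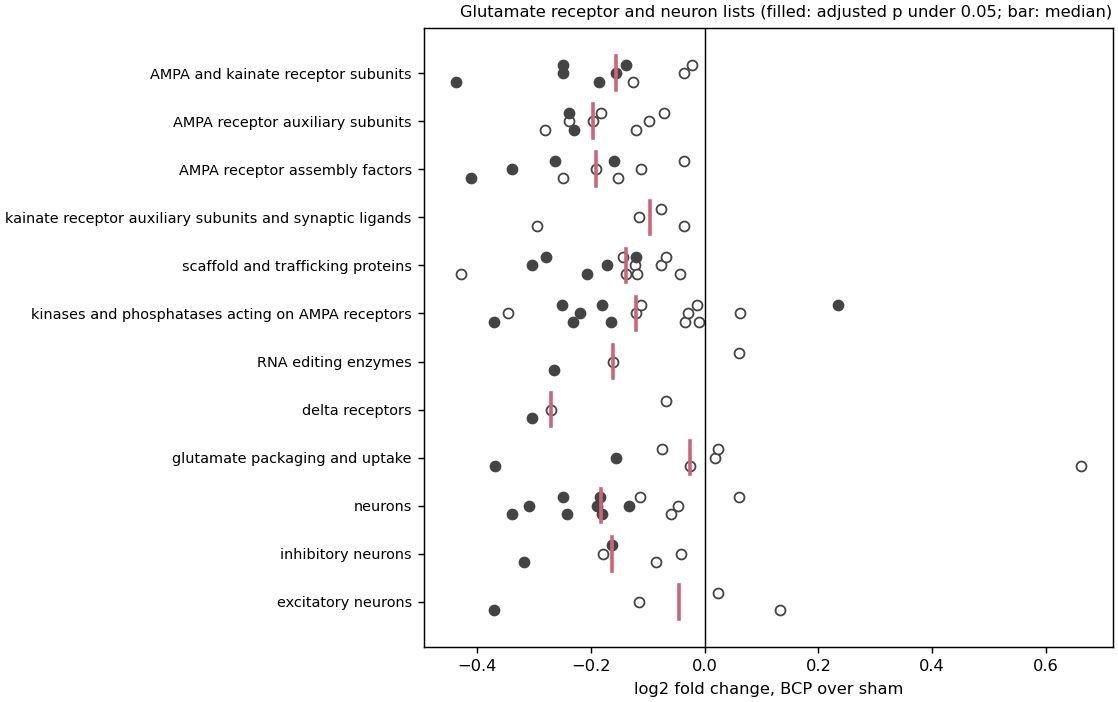
Log2 fold change, BCP over sham (horizontal axis), of the subunit genes, the 8 lists of partner genes and 3 lists of neuron markers; each point is a gene, filled where the adjusted p-value is under 0.05, and the bar is the median of the list. On TMM scaling the medians lie between -0.27 for the delta receptors and -0.03 for glutamate packaging and uptake, and scaling to neuron markers moves all genes up by 0.19.

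Several markers of neurons moved with the subunit genes. Of 12 neuron markers 8 fell and none rose, where 12.1% of all genes tested fell and 15.8% rose. Their median log2FC was -0.18, and their summed level was 11328 to 11529 CPM in the sham and 9617 to 10593 CPM in the BCP libraries. Of 5 inhibitory neuron markers 2 fell, with a median of -0.16. Of 4 tested excitatory neuron markers 1 fell, with a median of -0.05, and the summed level of that list was 254 to 272 CPM in the sham and 254 to 281 CPM in the BCP libraries. Of 3 tested motor neuron markers 1 fell, with a median of -0.18. All 7 oligodendrocyte markers fell as well, with a median of -0.41. The summed level of 7 astrocyte markers was 4105 to 4392 CPM in the sham and 5888 to 7655 CPM in the BCP libraries, although 3 of the 7 fell and only Gfap rose. Part of the highest sum came from Aqp4, at 2415 CPM in BCP library 1 and at most 379 CPM in any other library. Fewer neurons and less RNA of these genes per neuron cannot be told apart in bulk tissue, and neither can a larger share of RNA from microglia, T cells or astrocytes.

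To set the subunit genes against the neuron markers, the fit was repeated with libraries scaled by the summed counts of the 12 markers in place of TMM. This moved the median log2FC of all genes by 0.19, to 0.17, and left 4665 genes higher and 215 lower. On that scale 1 of the 9 subunit genes, Grik4, passed the test, at a log2FC of -0.25 ± 0.07 (standard error) and an adjusted p of 0.00692 in edgeR's quasi-likelihood test. Gria1 and Grik5 stood at -0.06 each, Gria3 at 0.03, Gria4 at 0.05 and Grik1 at 0.06, and none of these passed. Gria2 stood at 0.15 (adjusted p = 0.0527) and Grik3 at 0.17 (adjusted p = 0.266). Relative to the summed neuron markers, then, the decrease of Grik4 alone remained past the threshold. That sum, a mean of 11397 CPM in the sham libraries, is weighted to abundant markers, above all Nefl (3626 CPM) and Nefm (2193 CPM). Their log2FC was -0.18 and -0.31, whereas Snap25 (1888 CPM) stood at -0.06 and the less abundant Elavl4 at 0.06. A scaling that weights the markers equally was not tested.

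**Figure D5:**
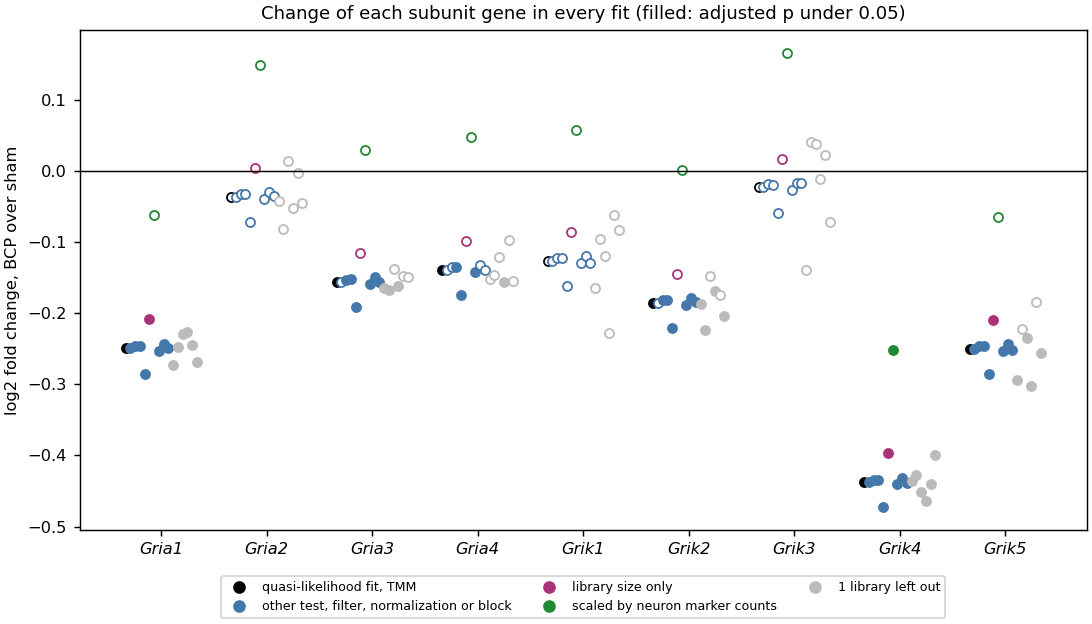
Log2 fold change of each subunit gene, BCP over sham (vertical axis), in the fit used and in 15 alternatives, filled where the adjusted p-value is under 0.05. Grik4 lies between -0.47 and -0.25 and is filled in every fit, whereas with scaling to neuron markers Gria2, Gria3, Gria4, Grik1, Grik2 and Grik3 lie above 0, and Gria2 and Grik3 also do with library size only.

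The 3 genes whose pattern over the 6 libraries was most like that of Grik4, by the root mean square difference of centered log2(CPM + 0.5), were Tmprss5, Tmcc2 and Ccm2l, with differences of 0.0221, 0.0231 and 0.0248. Tmprss5, which encodes a membrane-bound serine protease, went from 49.6, 49.5 and 48.2 CPM in the sham to 37.5, 36.0 and 35.4 CPM in the BCP libraries. Tmcc2, a transmembrane protein gene, had a log2FC of -0.41. Ccm2l was at under 2 CPM in every library and did not pass the test.

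In the table of lncRNA transcripts 20 lay within 10 kb of a subunit gene, of which 13 had enough counts to be tested, all of them inside the span of the gene. None of the 13 passed an adjusted p-value under 0.05 in edgeR's quasi-likelihood test, where 1.97% of all 12157 tested lncRNAs did (1.57% higher and 0.395% lower), and 1 of the 13 had an unadjusted p-value under 0.05. That transcript, NONRATT002392.2 in Grik5 (chr1:81923260-81923897), had 23, 14 and 21 counts in the sham and 10, 10 and 9 counts in the BCP libraries (log2FC -0.85, standard error 0.34, adjusted p = 0.327). MSTRG.4688.1, assembled by the authors inside Gria1 (chr10:42751494-42759180), had 280, 306 and 325 counts in the sham and 217, 232 and 280 counts in the BCP libraries, a log2FC of -0.17 (adjusted p = 0.563). No lncRNA lay within 10 kb of Grik4 or Grik1. The libraries kept strand, but the use of strand in counting is not given in the sources used here, so that reads of a subunit gene and of a transcript inside its span may not have been told apart. The spread between libraries was larger among lncRNAs, with a biological coefficient of variation of 33.4% against 7.72% for genes, which limits what could be detected there.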

How the data were processed

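Counts of genes and lncRNA transcripts and FPKM values were deposited by the authors for 6 libraries, 3 of BCP and 3 of sham-operated rats, which the labels of the samples name. The authors used Seqtk for filtering, HISAT2 2.0.4 for mapping (Rnor_6.0) and StringTie 1.3.0 for FPKM. The counter and its treatment of strand and of reads with several locations are not given in the sources used here.

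For genes and, in a fit of their own, lncRNAs, condition was the single term of a robust quasi-likelihood model of the deposited counts (edgeR 4.0.16, R 4.3.3), after the filter by expression and TMM normalization. P-values were adjusted after Benjamini and Hochberg over 14908 genes or 12157 lncRNAs. A feature rose or fell where the adjusted p-value was under 0.05, and the paper's further threshold of 2-fold is given beside it. Standard errors come from the F statistic. Of the gene rows 48 had no name and were kept under their identifiers. The code was tested on simulated counts. All 9 subunit genes, all genes of the partner lists past the threshold and the 3 genes most like the subunit gene with the smallest p-value may be named, and other lists are given by counts. A few genes within that rule are left unreported. The members and lists were chosen with earlier results of these data known. Marker lists also covered endothelial cells (0 of 3 tested fell or rose), oligodendrocyte precursors (1 of 4 fell), Schwann cells (0 of 3), skeletal muscle (1 of 2 fell) and astrocytes (3 of 7 fell, 1 rose). Promoter windows are RefSeq's, build GRCr8, which differs from the build of the files. DESeq2 1.42.0, other scalings, filters and a replicate block were alternatives. Figures were drawn with matplotlib 3.10.9. Intervals cover counting error and the spread between libraries only.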

Additional observations from a re-analysis of the deposited data

How the results depend on the processing

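Grik4 stayed lower and past the threshold in all 15 alternatives, with a log2FC between -0.47 and -0.25, and Gria1 in 14, all but the scaling by neuron marker counts. The number of subunit genes that fell, 6, was 3 with the likelihood ratio test, 3 with library size only and 1 with scaling by neuron marker counts, and 2 to 6 without each library in turn. Of the partner genes 21 fell and 1 rose; with neuron scaling 2 fell and 7 rose, and without each library 13 to 23 fell and 0 to 2 rose. Over all genes neuron scaling gave 4665 higher, 215 lower and 9 lower by more than 2-fold, against 2352, 1805 and 16. Those lower by more than 2-fold numbered 37 with no filter, 6 with at least 10 counts in every library and 16 to 33 without each library. Of all calls 43.4% were lower, 32.0% with library size only and 4.41% with neuron scaling. The direction turned for Gria2 (0.00441, 0.15 and 0.0144, and as low as -0.0811 without sham library 2) and Grik3 (0.0178, 0.17 and 0.0376) with library size only, with neuron scaling and without sham library 3, and for Grik3 also without sham library 2 (0.0409) or BCP library 2 (0.0230). With neuron scaling it also turned for Gria3 (0.0304), Gria4 (0.0477), Grik1 (0.0584) and Grik2 (0.00193). The share of Grik5 differed by 0.0752 percentage points, and by -0.411 to 0.735 without each library. The number of nearby lncRNAs past the threshold stayed 0.

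Replicate numbers did not pair the libraries, since deviations from the group means correlated at -0.110, 0.0543 and -0.0353 for the numbers 1, 2 and 3. With the replicate number as a block 5 subunit genes fell, Gria4 losing the call (log2FC -0.14, adjusted p = 0.0572).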

Other observations

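Inside Gria4 lay 3 overlapping transcripts assembled by the authors, MSTRG.28926.1, MSTRG.28926.2 and MSTRG.28926.3, whose counts were divided unevenly between libraries. MSTRG.28926.1 had 586, 0 and 687 counts in the sham and 452, 483 and 734 counts in the BCP libraries. MSTRG.28926.3 had 293, 361 and 0 counts in the sham and 401, 268 and 0 counts in the BCP libraries. Summed over the 3 transcripts, the level was 371 ± 90.2 CPM in the sham and 410 ± 52.0 CPM in the BCP libraries (SD, n = 3, exact two-sided permutation p = 0.6), so the zeros were not seen in the sum, which was formed after the values had been seen.

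Slc1a3, the other glutamate transporter of astrocytes, had 98.1, 251 and 255 CPM in the sham libraries and 328, 306 and 322 CPM in the BCP libraries, with sham library 1 far below the rest. Its log2FC of 0.66 (standard error 0.41) did not pass the test (adjusted p = 0.343 by edgeR's quasi-likelihood test).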
